A study of Macaca mulatta with 18 samples.

Results

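CP-only CTCF peaks are CTCF binding sites called in the CP tissue of the macaque fetal brain that have no counterpart in the list from the GZ tissue. They were chosen by the peak calls themselves, as autosomal CP peaks that overlap no GZ peak by 1 bp. Of 21476 autosomal CP peaks, 1805 met the rule, or 8.4% (95% Wilson interval 8.04 to 8.78), and the other 19671, called shared below, overlapped a GZ peak. The number depends on the GZ list: with that list cut to the number of CP peaks by fold, 4838 (22.5%) met the rule. In the GZ list, 10327 of 29938 autosomal peaks were GZ-only by the mirrored rule. The name describes absence from a list of calls; whether the protein was bound in GZ below the calling threshold cannot be read from peak lists.

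All samples came from wild-type rhesus macaque (Macaca mulatta) fetal brain at embryonic day 84, and the labels name the tissues only as GZ and CP. The CTCF ChIP-seq and DNase-seq lists rest on 1 library per tissue, all with titles that begin with RM01. The loop and boundary lists rest on 3 Hi-C libraries per tissue, which were taken as pooled. With 1 CTCF and 1 DNase library per tissue no difference between tissues could be tested. All intervals are 95% intervals for counting error only, and they treat neighbouring peaks as independent.

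CTCF is a zinc finger protein that binds a long DNA motif and halts the cohesin complex as it extrudes chromatin loops. Pairs of bound sites in facing orientation therefore often mark the anchors of loops, and clusters of them mark the boundaries of topologically associating domains. DNase-seq cuts accessible DNA, so a DNase peak marks a promoter, enhancer or insulator where nucleosomes are displaced. CTCF sites are shared among tissues more often than enhancers are.

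The 2 CTCF lists differed in length and in strength. There were 22044 CP and 30883 GZ peaks on all sequences, and the median fold enrichment that the authors' peak caller gave was 7.01 for autosomal CP peaks and 13.8 for autosomal GZ peaks. The autosomal DNase lists held 69872 CP and 81000 GZ peaks of 146 bp median width. The Hi-C lists held 9399 CP and 15048 GZ loops with anchors on 10 kb bins, and 2584 CP and 2806 GZ boundaries on 40 kb bins. Read depth is not in these lists and is unknown here.

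CP-only peaks were weak in their own list, above all by significance. Their median fold was 6.45 (6.34 to 6.62), from a lowest value of 2.34 to a highest of 24.6, against 7.07 (7.01 to 7.12) at shared CP peaks. The median −log10 q was 8.67 (8.52 to 8.97) against 22.8 (22.4 to 23.3), and the median width was 250.0 bp (246 to 254) against 320.0 bp (318 to 321). The fold ranges of both classes thus lay largely over each other, whereas the q values were far apart. GZ-only peaks had a median fold of 8.60 on the scale of their own library.

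**Figure D1:**
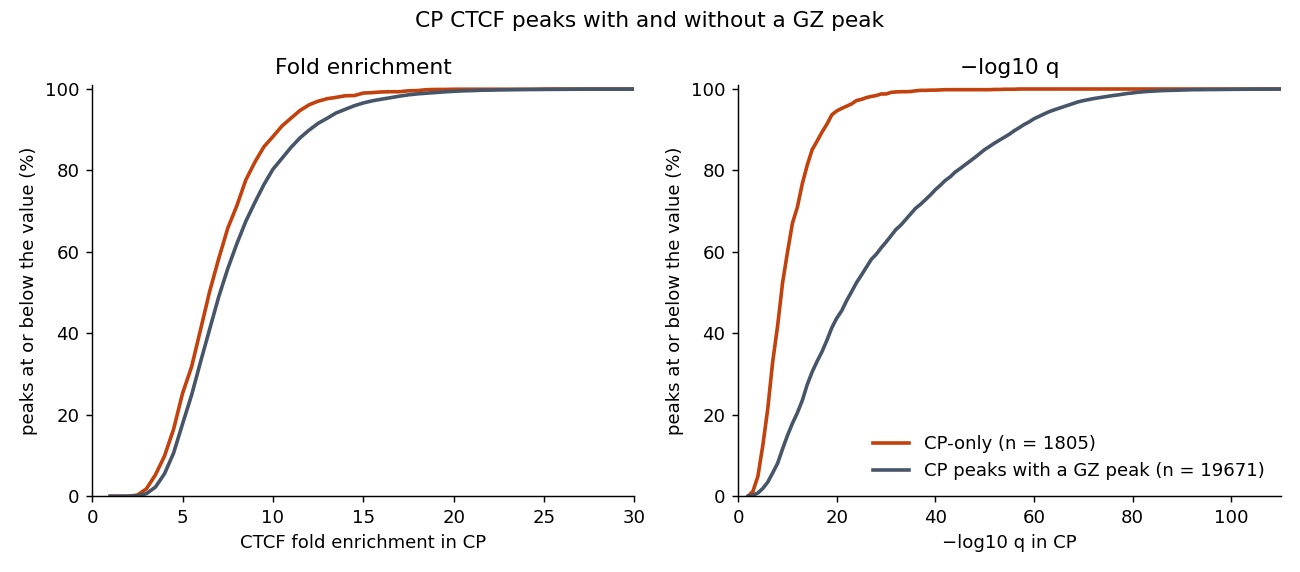
Cumulative share of CP-only and shared autosomal CP CTCF peaks (y axes, percent) against fold enrichment (left) and −log10 q (right), both as given by the authors' peak caller. The fold curves of CP-only peaks (median 6.45) and shared peaks (median 7.07) lie close together, and the −log10 q curves (medians 8.67 and 22.8) are well separated.

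The share of CP peaks that were CP-only fell along every measure of peak strength, and most steeply along q. By quartile of −log10 q, it was 24.0% in the lowest (1303 of 5427 peaks), then 7.89%, 1.43% and 0.112% (6 peaks) in the highest. By quartile of fold, it was 10.6%, 9.05%, 8.48% and 5.45%. By width, it was 19.8% among peaks of 200 to 250 bp (891 of 4505) and 2.40% among peaks of 450 bp or more. Within a q quartile the CP-only peaks had the higher fold, with medians of 5.81 against 5.21 in the lowest quartile and 9.40 against 7.11 in the second. These measures come from the contrast that chose the members, so they describe the set and support nothing further.

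The GZ peaks found at shared sites showed how strong a GZ peak usually is where CP has one. Their median GZ fold was 17.5 with a 5th percentile of 5.77, and it exceeded the CP fold of the same site at 88.7% of sites. Even where the CP peak was in its lowest fold quartile, the GZ partner had a median fold of 15.8 and a 5th percentile of 4.25. Where the CP peak was in its lowest −log10 q quartile, the GZ partner had a median −log10 q of 26.7 and a 5th percentile of 7.90. These values are from sites with a call in both lists and say nothing of sites without a GZ call.

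CP-only peaks mostly lay kilobases away from the nearest called GZ CTCF peak. The median distance to the nearest GZ CTCF peak was 15709 bp (14401 to 17611), with quartiles of 4517 and 40662 bp. Within 100 bp lay 13 members (0.720%), within 1 kb 214 (11.9%), within 10 kb 716 (39.7%) and within 100 kb 1631 (90.4%). A shared CP peak had its nearest other GZ peak at a median of 15681 bp, with 7.86% within 1 kb and 39.0% within 10 kb. The distances of CP-only and shared peaks were thus alike in the middle of their range, and CP-only peaks had more of the shortest ones. The measures differ by rule, since the overlapping GZ peak of a shared peak was left out. That GZ peak takes up the nearest space, so the shortest distances cannot be compared between these classes. GZ-only peaks lay at a median of 31791 bp from the nearest CP peak, in a list with fewer peaks to be near to.

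**Figure D2:**
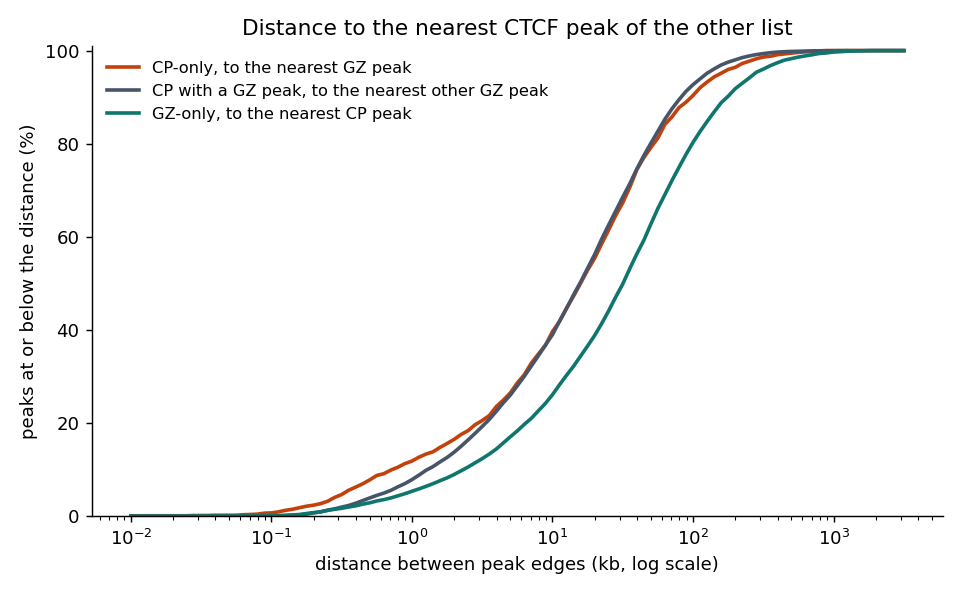
Cumulative share of CTCF peaks (y axis, percent) against distance to the nearest peak of the other tissue on a log axis (x axis), with shared peaks measured to the nearest GZ peak they do not overlap. CP-only and shared peaks have nearly the same median (15709 and 15681 bp), and GZ-only peaks lie farther from CP peaks (31791 bp).

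Few peaks lay within 50 bp of the overlap threshold. The 3 CP-only peaks nearest to a GZ peak were chr1:110399535-110399865 (fold 4.90, 1 bp from a GZ peak of fold 3.81), chr19:37880418-37880650 (fold 3.31, 6 bp from one of 6.02) and chr2:101489205-101489533 (fold 4.98, 28 bp from one of 2.31), all on rheMac8. The 3 CP peaks just outside the rule were chr1:154232691-154233187 (fold 5.44, 6 bp of overlap with a GZ peak of fold 4.28), chr1:5596583-5596820 (fold 2.38, 9 bp with one of 11.6) and chr8:142509792-142510067 (fold 3.16, 40 bp with one of 2.40). Within 50 bp of the threshold there were 4 members on one side and 4 shared peaks on the other. Other rules moved more peaks than these. Needing 50% coverage for sharing gave 1942 members in place of 1805, and needing no GZ peak within 1 kb gave 1591.

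Distance went along with other features of the members. The 214 members within 1 kb of a GZ peak had a median fold of 4.99, and the 174 members more than 100 kb away had one of 7.24. A GZ loop anchor held 41.1% of the nearest group, 35.5% of the 502 members between 1 and 10 kb, 15.5% of the 915 between 10 and 100 kb and 19.0% of the farthest. GZ DNase peaks lay at 60.3%, 49.2%, 56.0% and 42.0% of these groups, with no steady course. Shared peaks were not split by distance, so whether these courses are particular to members is unknown.

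The DNase libraries took no part in choosing the members. A CP DNase peak lay at 61.7% of CP-only peaks (1113; interval 59.4 to 63.9), below the 76.1% of all autosomal CP CTCF peaks and the 77.4% of shared peaks. A GZ DNase peak lay at 53.2% of them (961; 50.9 to 55.5), against 78.6% of all and 80.9% of shared peaks. Accessible DNA in the tissue without a CTCF call was thus found at more than 50% of the members. DNase peaks cover only 0.381% (CP) and 0.442% (GZ) of the autosomes. In both tissues the DNase peaks sat at the middle of the CTCF peak, with 30.2 CP and 26.2 GZ DNase peaks per 100 CP-only peaks per 200 bp bin, the mean of the bins on either side of the centre, against 0.701 and 0.765 per bin at 3 to 5 kb.

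The balance between tissues leaned to CP at CP-only peaks and to GZ in the other classes. The CP share minus the GZ share was 8.42 percentage points (6.41 to 10.4) at CP-only peaks, −3.51 at shared peaks and −13.8 at GZ-only peaks. Both tissues had a DNase peak at 859 members (47.6%), CP alone at 254 (14.1%), GZ alone at 102 (5.65%) and neither at 590 (32.7%). Among members with a DNase peak in a single tissue, that tissue was CP at 71.3% (66.4 to 75.8). The same share was 37.5% (35.8 to 39.4) at shared peaks and 22.2% (20.6 to 23.8) at GZ-only peaks. Cutting both DNase lists to the same number of peaks left the CP-only shares at 61.7% and 48.5%.

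**Figure D3:**
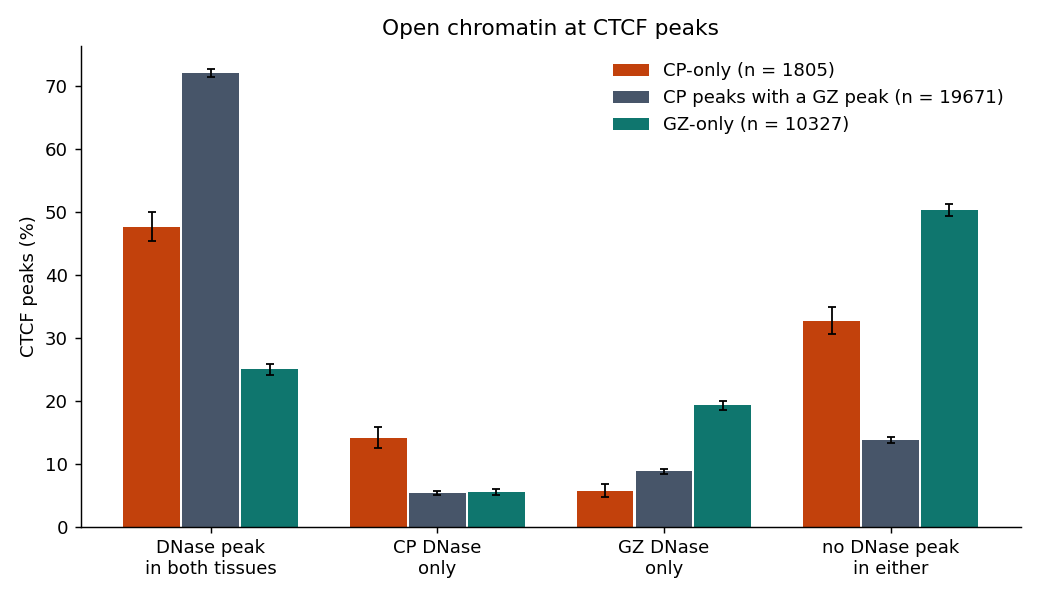
Share of CP-only, shared and GZ-only CTCF peaks (percent, bars with 95% Wilson intervals) with a DNase peak in both tissues, in CP alone, in GZ alone or in neither. CP-only peaks are the class in which CP alone (14.1%) exceeds GZ alone (5.65%).

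Peaks in the same quartile of CP significance differed in GZ accessibility by class, although q and fold were not matched within a quartile. In the lowest −log10 q quartile, a split chosen after the data were seen, CP DNase peaks lay at 59.2% of CP-only peaks (56.6 to 61.9) and at 57.4% of shared peaks (55.9 to 58.9), with overlapping intervals. GZ DNase peaks lay at 52.4% (49.7 to 55.1) and 66.1% (64.6 to 67.5), with separate intervals. In the second quartile the CP shares were 65.6% and 71.2% and the GZ shares 53.5% and 76.7%. The lower CP accessibility of the whole set was therefore not seen among its weakest peaks, where most members lie, while the lower GZ accessibility was.

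DNase overlap within the set was highest in the lowest fold quartile and did not follow fold beyond it. From the lowest to the highest quartile of CP fold, 75.4%, 55.9%, 51.6% and 60.1% of CP-only peaks had a CP DNase peak and 72.3%, 47.0%, 40.7% and 46.0% a GZ DNase peak. At shared peaks the CP shares were 73.6%, 77.8%, 77.4% and 80.6%. The median fold was 5.71 at members accessible in both tissues, 7.45 in CP alone, 7.24 in GZ alone and 6.83 in neither.

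CP-only peaks in accessible DNA often sat on very strong DNase peaks. At members with a DNase peak in both tissues, the median normalized DNase tag count, as HOMER gave it, was 2.66 in CP and 2.51 in GZ, against 1.11 and 1.09 at shared peaks. The ratio of CP to GZ tags had a median of 1.04 (1.00 to 1.07) at these members, 1.00 at shared peaks and 0.877 (0.856 to 0.893) at GZ-only peaks. Of 1113 members with a CP DNase peak, 472 (42.4%; 39.5 to 45.3) carried one from the top 10% of the CP DNase list, where the share at shared peaks was 13.7% and at GZ-only peaks 9.32%. Among members in the upper 50% of CP fold it was 22.2%. In the GZ list the shares were 47.3%, 13.0% and 8.92%.

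Read the other way, the CP-only share of CP peaks was high at both ends of accessibility. It was 13.5% (692 of 5141) without a CP DNase peak, 7.57% in the lower 50% of CP DNase tags, 3.42% from 50% to 90%, 16.4% from 90% to 99% and 33.1% (102 of 308; 28.1 to 38.6) in the top 1%. Along GZ DNase tags it was 18.3%, 6.22%, 2.35%, 16.4% and 30.4%. The GZ-only share of GZ peaks went from 61.3% without a GZ DNase peak to 15.6% in the top 1%, with no comparable rise at the top. These bins were chosen after the data were seen.

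**Figure D4:**
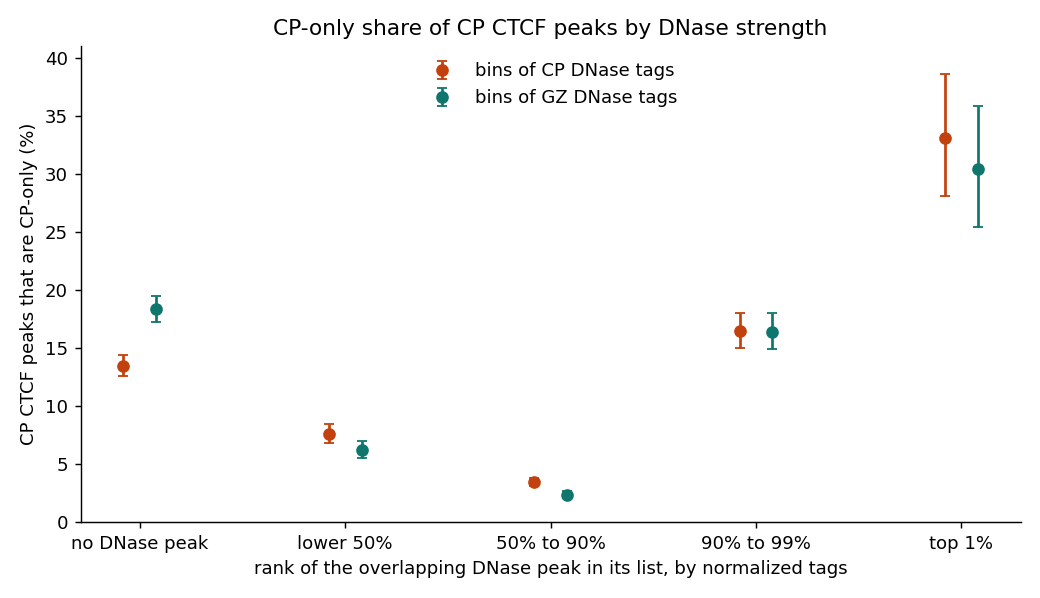
Share of autosomal CP CTCF peaks that were CP-only (y axis, percent, 95% Wilson intervals) by rank of the overlapping DNase peak in the CP list (orange) or the GZ list (green), from no DNase peak to the top 1% (x axis). The share is lowest from 50% to 90% (3.42% and 2.35%) and highest in the top 1% (33.1% and 30.4%).

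The members on top-10% DNase peaks had low folds and were accessible in both tissues. These 472 peaks, 26.2% of all members, had a median fold of 5.05, and 467 of them (98.9%) also had a GZ DNase peak, with a median CP to GZ tag ratio of 0.93. The 641 members on weaker CP DNase peaks had a median fold of 7.01, a GZ DNase peak at 61.2% and a tag ratio of 1.21. The 692 members without CP DNase had a fold of 6.90 and a GZ DNase peak at 14.7%. Among members with DNase peaks in both tissues, the median ratio was thus above 1 only on the weaker CP DNase peaks. The ratio was not split by DNase strength for shared peaks, so whether this is particular to members is unknown. The lists also differed at the top, since the top 1% began at 5.7 tags in CP and 7.27 in GZ. Lower folds at the strongest DNase peaks were found in the other classes too. The median CP fold of shared peaks was 7.32 from 50% to 90% of CP DNase tags, 5.99 from 90% to 99% and 6.09 in the top 1%, and the GZ fold of GZ peaks with a CP peak was 20.5, 15.4 and 9.34 along GZ tags. Low fold thus went with strong DNase signal beyond the members, and the part of DNase strength in the CTCF calls was not tested.

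CP-only peaks were seldom in loop anchors. Anchors of CP loops held 18.4% of them (333; 16.7 to 20.3), against 36.6% of all autosomal CP CTCF peaks and 38.3% of shared peaks. Anchors of GZ loops held 24.4% (441; 22.5 to 26.5), against 48.7% of all and 50.9% of shared peaks. GZ-only peaks had 16.0% and 24.8%, close to the CP-only values. Anchor bins cover 4.73% (CP) and 6.69% (GZ) of the autosomes. The CP-only share in CP anchors was similar across fold quartiles (18.2%, 17.5%, 20.6% and 17.2%), while that of shared peaks went from 29.8% to 44.2%. In the lowest q quartile it was 18.6% for CP-only and 27.7% for shared peaks.

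Members lay in GZ anchors more often than in CP anchors, in a GZ list that is longer. The CP minus GZ share was −5.98 percentage points at CP-only peaks, −12.6 at shared and −8.80 at GZ-only peaks. With the GZ loop list cut to the number of CP loops by observed over expected contacts, GZ anchors held 13.1% of CP-only peaks against 18.4% in CP, and the sign turned. At shared peaks the same cut gave 35.9% and 38.3%. The cut shortens the list and may also change the kind of loop in it, but the GZ loops kept and dropped were not compared. In the CP list, the median observed over expected differed by kind of loop. It was 13.6 without CP CTCF at either anchor and 3.06 with shared peaks at both. The direction of the anchor difference thus depended on which GZ loops were counted. Of the members, 243 (13.5%) were in anchors of both tissues, 90 (4.99%) in CP alone, 198 (11.0%) in GZ alone and 1274 (70.6%) in neither. At shared peaks these shares were 34.4%, 3.84%, 16.5% and 45.3%. Among peaks in anchors of a single tissue, that tissue was CP at 31.3% of members (26.2 to 36.8) and 18.9% of shared peaks (17.7 to 20.1).

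Members in CP anchors lay both in bins with and in bins without shared CTCF peaks. Of the 333 in a CP anchor, 148 had a shared CP peak in their 10 kb bin and 185 (55.6%) had none. No GZ peak lay in the bin of 167. CP anchors held 25.7% of the members within 1 kb of a GZ peak and 27.9% of those between 1 and 10 kb. They held 11.9% of those between 10 and 100 kb and 16.7% of the farthest, a split not made for shared peaks. Members outside anchors were not counted by bin. Seen from the anchors, 179 CP anchor bins (1.42%) held CP-only peaks as their sole CP CTCF peaks. The same bin was a GZ anchor for 59.2% of these (51.9 to 66.1). A GZ CTCF peak was in 10.1% of them, a share held low by choosing bins without shared peaks. Of 6423 CP anchors with shared peaks alone 88.5% were GZ anchors, of 145 with both kinds 88.3%, and of 5890 without a CP CTCF peak 66.6%. Those 5890 bins, also without shared peaks, had a GZ CTCF peak in 17.5%.

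CP loops resting on such anchors had a lower share found in GZ. Of 246 loops with at least 1 anchor whose sole CP CTCF peaks were CP-only, 159 were in the GZ list within 1 bin at both anchors (64.6%; 58.5 to 70.3), against 81.3% of the other 8892. Loops with a shared peak at both anchors were found for 89.6% of 3352. Where a shared peak faced an anchor with no CP CTCF the share was 81.7%, and where it faced a CP-only anchor it was 67.2% (92 of 137; 58.9 to 74.5). CP-only peaks facing no CTCF gave 62.9% (66 of 105), and 1 of 4 loops with CP-only peaks at both anchors was in GZ. Loops without CP CTCF at either anchor gave 71.3% (69.7 to 73.0), and their median span was 6400.0 kb. That interval overlapped those of loops with CP-only peaks facing a shared peak and facing no CTCF (53.3 to 71.5). A share below that of shared peaks at both anchors was thus not particular to CP-only anchors.

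Contact enrichment could be compared for loops that both lists place in identical bins. The observed over expected contacts in GZ, divided by those in CP, gave a median ratio of 1.05 (0.983 to 1.10) at 106 loops with a CP-only anchor and of 1.13 (1.12 to 1.14) at 5308 others. GZ was the higher tissue at 55.7% and 73.5% of them. A low ratio was not particular to CP-only anchors: 1547 loops without CP CTCF at either anchor had a ratio of 1.03, with GZ higher at 55.7%. Within the CP-only loops the ratio was 1.10 (0.997 to 1.14) at 59 facing a shared peak and 0.985 (0.922 to 1.06) at 46 facing no CP CTCF. Over all 246 and 8892 loops, in identical bins or not, the median observed contacts in CP were 74 and 75 and the median observed over expected 2.82 and 3.29.

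**Figure D5:**
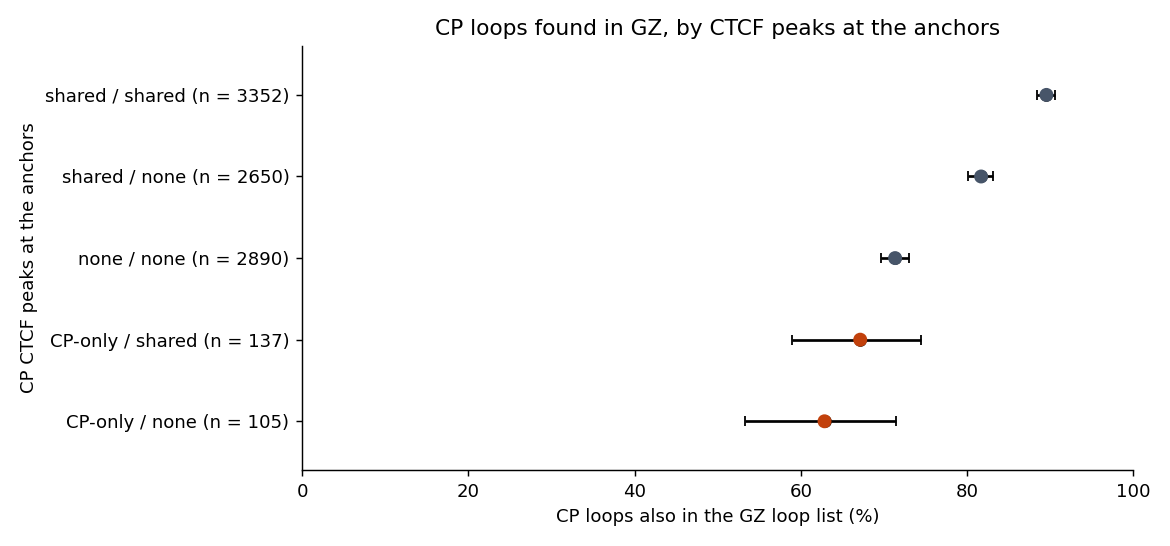
Share of CP loops also in the GZ list (x axis, percent, points with 95% Wilson intervals) by the CP CTCF peaks at their 2 anchors. Loops with CP-only peaks as the sole CP CTCF of an anchor (67.2% facing a shared peak, 62.9% facing none) lie below loops with shared peaks at both anchors (89.6%). Their intervals overlap that of loops without CP CTCF at either anchor (71.3%).

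Equal numbers of CP-only peaks lay in CP and in GZ boundaries. A CP boundary bin held 7.04% of members (127; 5.95 to 8.31), against 7.67% of all autosomal CP CTCF peaks, and a GZ boundary bin also held 127, against 8.03%. Shared peaks had 7.73% and 8.12%, and GZ-only peaks 5.52% and 6.02%. Boundary bins cover 3.72% and 4.04% of the autosomes. Of the members, 66 (3.66%) were in a bin that was a boundary in both tissues, 61 (3.38%) in a CP one alone and 61 (3.38%) in a GZ one alone. At shared peaks these shares were 4.58%, 3.16% and 3.55%. Within 40 kb of a boundary bin lay 20.6% of members in CP and 21.9% in GZ. The median distance to a CP boundary was 191 kb for CP-only, 159.8 kb for shared and 219.8 kb for GZ-only peaks.

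Among members, those on strong DNase peaks were most often in boundary bins. The same split was not made for shared peaks, so whether this is particular to members is unknown. Of the members on top-10% CP DNase peaks, 11.0% (8.50 to 14.2) were in a CP boundary bin, against 5.62% on weaker DNase peaks and 5.64% without one. The 48 CP boundary bins whose sole CP CTCF peaks were CP-only had a median strength of 0.559, and 43.8% of them were a GZ boundary in the same bin and 85.4% within 40 kb. For the 1010 bins with shared peaks alone the values were 0.597, 59.4% and 90.6%, and for the 1356 without CP CTCF 0.589, 56.3% and 86.9%.

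DNase in CP alone was as frequent at anchors of CP alone as in the whole set. Of the 90 members in an anchor of CP alone, 13 (14.4%) had DNase in CP alone, against 254 (14.1%) of all members, and none of these 13 was also in a CP boundary bin with no GZ boundary within 40 kb. Such boundary bins held 12 members in all. No DNase peak, anchor or boundary of either tissue lay at 386 of the 1805 members. The same count was not made for shared peaks, so whether it is particular to the members is unknown.

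The strongest members showed how varied the set is. The highest fold, 24.6, was at chr5:9081818-9082237, which had no DNase peak in either tissue and lay 1.64 kb from a GZ peak. It was in a boundary bin of both tissues, of strength 3.83 in CP, and anchored a CP loop of 690.0 kb to chr5:9770001-9780000 with 94 contacts where 13.2 were expected, also found in GZ. The next 4 were in no anchor and no boundary bin. The peak chr16:17450783-17451108 (fold 19.6) had a CP DNase peak of 0.596 normalized tags and none in GZ. At chr3:63575933-63576292 (fold 18.5) the DNase tags were 1.51 in CP and 0.45 in GZ, and at chr4:80339014-80339348 (fold 18.4) they were 0.656 and 0.544. The peak chr1:51931834-51932158 (fold 18.3), 204 kb from a GZ peak, had 1.63 tags in CP and no GZ DNase peak.

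Beside chr16 and chr1, the strongest member accessible in CP alone was chr5:8021050-8021328 (fold 17.2, 0.477 tags). The strongest in an anchor of CP alone was chr7:41848666-41848927 (fold 17.0), whose loop of 140.0 kb to chr7:41980001-41990000 had 72 contacts where 31.7 were expected and was not in the GZ list. At chr12:82222686-82223043 (fold 14.7) a loop of 910.0 kb had 45 contacts against 18.8 expected, and at chr3:169906750-169907087 (fold 13.9) a loop of 5520.0 kb had 60 against 24.0. All 3 sites had DNase peaks in both tissues.

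The 3 strongest members in a CP boundary bin far from GZ boundaries were weaker. They were chr5:165323577-165323878 (fold 10.1, 204 kb from a GZ boundary), chr3:117827606-117827850 (fold 8.05, 388 kb) and chr6:166831300-166831504 (fold 7.83, 71.3 kb). The first 2 had no DNase peak, and the third had 5.52 tags in CP and 10.4 in GZ. The members farthest from GZ CTCF were chr18:61683693-61684117 (fold 9.52, 849 kb), chr2:157034453-157034652 (fold 7.65, 771 kb) and chr5:31616254-31616493 (fold 4.95, 741 kb), none of them in an anchor or boundary bin and none with a GZ DNase peak.

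CP-only peaks were spread over all 20 autosomes. Their share of a chromosome's CP peaks went from 6.12% on chromosome 9 (61 of 996) to 10.5% on chromosome 19 (113 of 1080). Members per length followed all CP peaks: chromosome 19 had 2.11 members and 20.1 CP peaks per Mb, and chromosome 5 had 0.352 members and 4.57 CP peaks per Mb. The 1 Mb window with the most members was chr14:8000001-9000000, with 8 of its 46 CP peaks. The median distance between a member and the next member was 359179 bp. Another CP peak of any kind lay within 1 kb of 176 members and within 10 kb of 613, and another member lay within those distances of 16 and 63, or 9.09% and 10.3% of them, beside the 8.4% that members make up of CP peaks. To the nearest other CP peak of any kind the median was 21061 bp, and 21472 bp for shared peaks.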

How the data were processed

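CTCF peaks, DNase peaks, Hi-C loops and boundaries of GZ and CP were used. Tools in the submitters' processing notes, which give neither role nor version, are MACS2, HOMER, HiC-Pro, STAR, Bowtie2, deepTools and SAMtools; the builds there are Mmul_8.0.1 and rheMac8. The deposited CTCF peaks (narrowPeak) carry −log10 p and q values, a score and, as a ratio, the fold enrichment; their names contain "merge", and use of the input as control is not stated in these sources. DNase peaks are from HOMER per the file headers, with a score, a normalized tag signal and a fold ratio over local background; the total the tags are scaled to is not given, and the comparison of tags between tissues rests on that scaling. Loops at 10 kb list an observed count of contacts and an expected signal, per the file headers. Boundary strengths are deposited scores whose column has no header. Hi-C lists were taken as pooled over 3 libraries; per a note of the submitters, the contact files of the Hi-C were later exchanged.

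Overlaps of at least 1 bp, distances between edges and Wilson intervals (binomial order-statistic intervals for medians) were computed with Python 3.11.15, numpy 2.4.6, pandas 2.3.3 and scipy 1.17.1, and the overlap code was tested on simulated intervals. DNase tags are summed over overlapping peaks, bins of DNase strength use the strongest overlapping peak, and a loop counted as found in GZ when both anchors matched within 1 bin. Medians of distances and folds carry no test. The depth of the libraries is unknown from these lists. Coordinates are 1-based on rheMac8, with DNase positions as listed. Regions named are those with the highest fold in the whole set and in each combination of features, those farthest from GZ peaks, and those nearest to the overlap threshold. Members, lists and rules were chosen with earlier results of these data known; the q quartiles and DNase strength bins were added after the data were seen. The RNA table, the input samples and a genome and annotation on rheMac8 were not used here, so the planned sequence and gene context was not run.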

Additional observations from a re-analysis of the deposited data

Results flagged for a closer look

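Chromosome X was outside the autosomal comparison, and it also held CP peaks with no GZ peak. There were 63 such peaks among 562 CP peaks (11.2%; 95% Wilson interval 8.86 to 14.1), beside 8.40% (8.04 to 8.78) on the autosomes. They are listed because this chromosome was left out of the comparison; that the count is above the 3 that a count of 0 allows says nothing of a difference from the autosomes. The GZ list had 932 peaks on X.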

How the results depend on the processing

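Of 78 alternative values, 37 counted as the same as the reported one, 40 as moved and 1 changed sign. Shares and medians were judged by the counting interval of the reported value. The number of CP-only peaks was judged more loosely, so that 1942 and 1591 counted as the same as 1805. The sign change was the CP minus GZ anchor share, 5.37 percentage points with the GZ loop list cut to the CP number, where GZ anchors held 13.1%. With the GZ CTCF list cut to the CP number by fold, 4838 peaks (22.5%) were CP-only, at a median distance of 24420 bp. Their DNase shares were 64.6% in CP and 60.0% in GZ (a difference of 4.53), the GZ anchor share was 28.2% and the anchor difference −7.92. In the upper 50% of CP fold, 752 peaks (6.98%) were CP-only, with a median fold of 8.57 and distance of 19808 bp. There the DNase shares were 55.1% and 43.0% (a difference of 12.1), the GZ anchor share 21.5%, the anchor difference −2.13, and 22.2% of CP DNase peaks at members were in the top 10%. With no GZ peak within 1 kb, the CP-only share was 7.41%, the fold 6.67, the distance 20332 bp and the GZ anchor share 22.2%; with 50% coverage needed for sharing, the CP-only share was 9.04%. A DNase peak within 500 bp raised the shares to 69.0% and 61.5%. The GZ DNase share was 50.8% around summits and 48.5% with equal lists (a difference of 13.2). In the lowest −log10 q quartile the CP DNase share was 59.2% and the top-10% share 46.1%. Anchors widened by 1 bin gave 31.9% and 41.6% (a difference of −9.70), and loops up to 2 Mb a GZ anchor share of 22.5%. Same-bin matching found 43.1% of loops at CP-only anchors in GZ (106 of 246). Under the same rule 5308 of the 8892 other CP loops were found, so the stricter match lowered both groups. Boundary shares were 20.6% and 21.9% within 40 kb and 3.49% and 3.43% in the upper 50% of strength. The effects of the shortened GZ CTCF list on DNase and anchor shares, the q quartile, same-bin matching and the top-10% shares were chosen after seeing the data. No paired analysis was possible because the results come from no test. Replicates could not be left out, with 1 CTCF and 1 DNase library per tissue. Missing depth and list lengths that differ limit every comparison between tissues, and a CP-only call depends on the threshold of the GZ list.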
